A study of Mus musculus with 2 samples.

Results

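The genes described here encode the replication-independent histone variants, whose synthesis is not tied to the copying of DNA as that of the S-phase histones is. The tie is not absent for each of them, since H2afx also makes an mRNA of the S-phase type and Cenpa is transcribed mainly after S phase. The list holds 9 genes, H2afx, H2afy, H2afy2, H2afv, H2afz, H3f3a, H3f3b, H1f0 and Cenpa. A gene was taken as the rows of the deposited table whose transcript name, without its number, is the gene symbol, and the row with most windows stood for the gene. Of the 9 genes, 8 had a row, among 22605 genes in all. H1f0, the gene of a linker histone, is annotated as a pseudogene on NCBIM37 (chromosome 15, 78859152 to 78859689) in GENCODE M1, has no coding span there and is not analyzed here. M1 cells are leukemic myeloid progenitors of the mouse, kept as a cell line, which the cytokine IL-6 drives toward macrophages. DHS-seq sequences the small fragments that a brief DNase I digestion cuts out of accessible chromatin in isolated nuclei. Untreated M1 cells gave 1 library, and M1 cells cultured with IL-6 for 4 to 5 days, according to the labels, gave the other. The labels give both the same range of passages and the same horse serum medium. Without a second library of either kind no difference has a replicate check and no p-value is given.

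Nucleosomes are assembled mostly from histones made during S phase. The variants replace them at other times and places. H2A.Z and H3.3 are placed at promoters and enhancers of active genes, H2A.X is phosphorylated around DNA breaks, macroH2A is enriched in repressed chromatin, and CENP-A marks the centromere. Cells that stop dividing shut off the S-phase histone genes and go on making variants.

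For each transcript the table gives the mean number of reads per window of 700 bp over the windows that its coding span, from start to stop codon, touches. The signal therefore covers introns and coding exons, and it covers a promoter only where the start site lies close to the start codon. Reads were recovered from these means. Longest-first non-overlapping coding spans held 9042273 reads in the untreated library and 8498205 reads in the treated library, or 7.56 and 7.11 reads per window. Intervals are 95% Clopper-Pearson intervals of the ratio of treated to untreated signal. Such an interval holds counting error alone. It sets these libraries against each other and says nothing of how far the conditions vary. Among markers of the cell type, 10 of 11 myeloid genes could be matched, with a median percentile of 83.2 among all genes in the untreated library and 81.4 in the treated library. The 5 lymphoid genes had a median percentile of 55.4, the 5 erythroid genes 30.7 and the 8 genes of non-hematopoietic tissues 65.5 in the untreated library. In the treated library these were 63.8, 14.2 and 81.7, so the non-hematopoietic genes there stood as high as the myeloid genes. No marker was at 0 in the untreated library. With the deposited scaling the median log2 ratio of treated to untreated signal was -0.67 for the myeloid genes, of which 3 of 10 lay 2-fold or more lower, beside 13.4% of all genes, and their summed reads were 4132 and 2577. Over the genes above 21 reads in a library, it was 0.39 for 5 lymphoid, 0.29 for 3 erythroid and 0.37 for 7 non-hematopoietic genes, and 0 of these lay that far lower. The part of this shift in the ratios of the histone variant genes was not tested.

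The promoters of the 3 members with the most reads in a single window are shown because their start sites lie in or next to the measured windows. Each is the 250 bases before the annotated start site, read 5′ to 3′ from NCBIM37. Capitals mark CCAAT (the CCAAT box), TATAAA (the TATA box), GGGCGG (the GC box) and TTTGAA (an element of cell cycle genes) on either strand, and overlapping matches run together.
H2afx, chr9:44142548-44142797, plus strand: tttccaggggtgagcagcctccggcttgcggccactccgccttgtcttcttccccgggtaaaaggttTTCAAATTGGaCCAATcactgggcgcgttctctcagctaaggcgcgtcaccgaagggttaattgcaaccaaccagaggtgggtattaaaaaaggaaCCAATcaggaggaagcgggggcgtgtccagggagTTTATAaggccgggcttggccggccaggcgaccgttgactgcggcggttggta
H2afv, chr11:6344447-6344696, minus strand: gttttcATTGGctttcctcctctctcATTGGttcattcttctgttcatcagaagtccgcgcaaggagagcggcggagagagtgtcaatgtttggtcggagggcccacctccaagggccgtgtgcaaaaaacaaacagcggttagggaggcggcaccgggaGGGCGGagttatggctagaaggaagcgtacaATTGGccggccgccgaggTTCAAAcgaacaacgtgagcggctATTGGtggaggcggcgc
H2afz, chr3:137527201-137527450, plus strand: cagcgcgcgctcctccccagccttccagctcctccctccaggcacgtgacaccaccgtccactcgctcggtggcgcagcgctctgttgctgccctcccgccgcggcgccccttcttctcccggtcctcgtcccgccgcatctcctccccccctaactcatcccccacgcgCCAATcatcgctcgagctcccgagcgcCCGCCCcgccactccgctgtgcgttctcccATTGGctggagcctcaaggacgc
CCAAT, a short element of many cell cycle promoters, matched 3 times in H2afx, 4 times in H2afv and 2 times in H2afz. Cenpa had 2, and H2afy, H2afy2 and H3f3a had none. H3f3b had none before the start site of the transcript that stands for it and 4 before the start site of its other transcript, nearer the coding span. With the transcript that stands for each gene, CCAAT was found in 4 of 8 members, beside 34.8% of 22592 promoters of the same length. GGGCGG was found in 4 of 8 (40.4% of all promoters), TATAAA in 1 (12.6%) and TTTGAA in 2 (14.7%). With the other H3f3b transcript, CCAAT was found in 5 members and TATAAA in 2. A match of letters does not show that a factor binds there.

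In untreated M1 cells the 8 genes ranged from 7.76 to 412 reads per window, a 53.1-fold range, and the median over all genes was 7.75. In the treated library they ranged from 7.71 to 62.3 scaled reads per window, an 8.08-fold range, with a median of 8.14 over all genes. H2afx, H3f3b, H2afz and H2afv stood highest in the untreated library. The other 4 genes were within 1.41-fold of each other, between 7.76 and 10.9 reads per window.

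**Figure D1:**
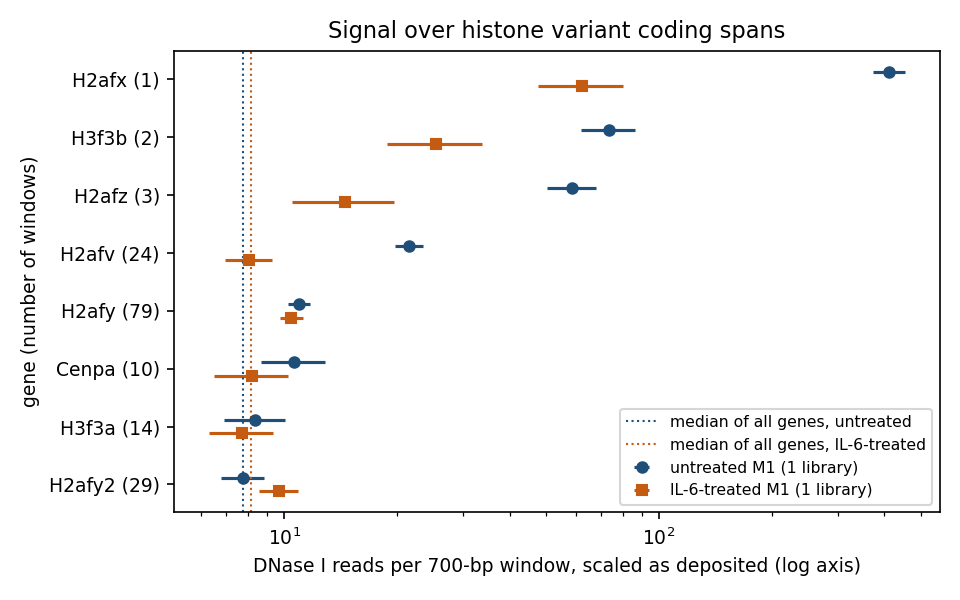
Mean DNase I reads per 700-bp window (log axis, scaled as deposited) over the coding span of each gene, with the number of windows in brackets, in untreated (circles) and treated (squares) M1. Bars are 95% Poisson intervals and dotted lines are the medians of all genes. H2afx, H3f3b, H2afz and H2afv stand above the others in the untreated library, and H2afv reaches the median of all genes in the treated library.

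H2afx encodes H2A.X, the H2A whose phosphorylated form marks DNA breaks. It lies on chromosome 9 from 44142798 to 44144154 on the plus strand and has a single exon. Its coding span (44142845 to 44143276) falls into 1 window, 44142701 to 44143400, which also holds the start site at 44142798, the 5′ UTR and 97 bases of the promoter printed above. This window held 412 reads in the untreated library, at the 99.9 percentile of all genes. It held 60 reads in the treated library, at the 99.7 percentile. Most other genes are ranked by a mean over more windows. Of 4349 recovered single windows, this one included, 56 (1.29%) held at least as many reads in the untreated library. In the treated library 113 (2.60%) did. The ratio of H2afx was 0.151 (0.113 to 0.199), the lowest of the 8 genes. No coding span of another gene reaches this window. Of its 32-bp sequences, 82.4% occur once in the genome. H2afx therefore had the highest mean per window of the 8 genes in both libraries and also the lowest ratio.

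H2afz and H2afv encode the paralogs H2A.Z.1 and H2A.Z.2, variants found beside the start sites of active genes. H2afz (chromosome 3, 137527451 to 137529886, plus strand) has 5 coding exons in 3 windows, from 137527601 to 137529700, which begin 150 bp downstream of the start site of the transcript that stands for it. The 3 windows held 176 reads in the untreated library and 42 in the treated library, a ratio of 0.248 (0.173 to 0.349). A shorter listed transcript and the SD between windows resolve the single windows. In the untreated library the first 2 windows held 142 and 26 reads, in an order that is not known, and the third held 8. In the treated library the first 2 held 27 and 14 reads and the third held 1. Most of the signal of H2afz thus lay in 1 of the 2 windows nearest its promoter. The third window had a ratio of 0.130 with an interval from 0.00292 to 0.968, and 59.2% of its 32-bp sequences occur more than once in the genome.

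H2afv (chromosome 11, 6327229 to 6344446, minus strand) spreads its 5 coding exons over 24 windows, from 6328001 to 6344800, and the last of these holds the start site at 6344446. The gene held 517 reads in the untreated library, or 21.5 per window (SD between windows 68.9). In the treated library it held 186 reads, or 8.05 scaled reads per window (SD 13.2). The ratio was 0.373 (0.314 to 0.442). The mean and SD allow between 245 and 344 reads for the strongest window in the untreated library, which is 47.4% to 66.5% of all reads of the gene. In the treated library they allow 29 to 67 reads, or 15.6% to 36.0%. The other 23 windows had a mean of 7.52 to 11.8 reads in the untreated library and 5.37 to 7.09 scaled reads in the treated library. Outside 1 window, the untreated signal of H2afv was thus near the median of all genes. All listed H2afv transcripts touch the same windows, so the position of the site within the gene could not be resolved.

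**Figure D2:**
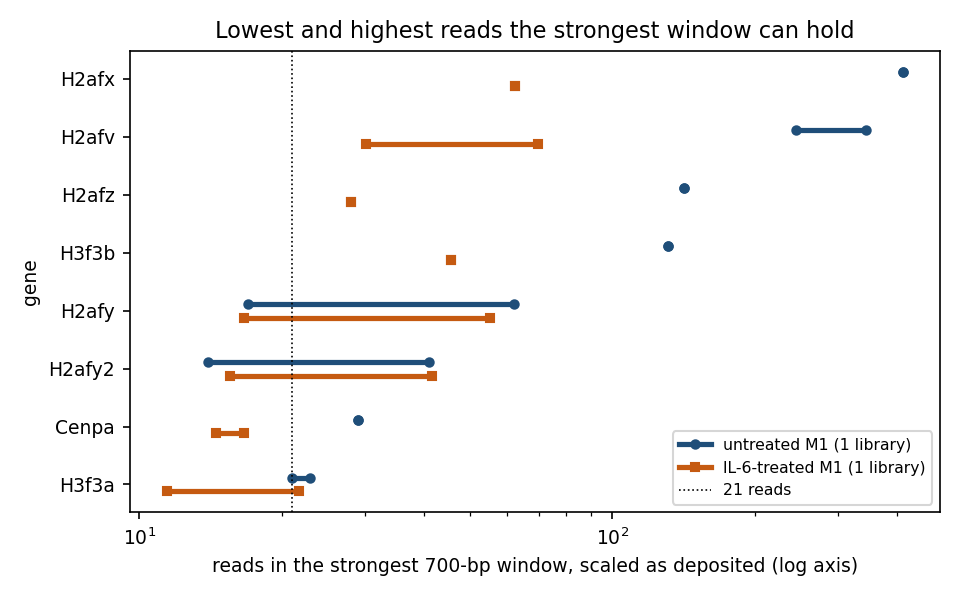
Lowest and highest number of reads (log axis, scaled as deposited) that the strongest 700-bp window of each gene can hold, given the mean and SD over its windows, in the untreated (blue) and IL-6-treated (orange) library. Single points are exact values, and the dotted line is at 21 reads. With the deposited scaling the bounds of the libraries do not overlap for H2afx, H2afv, H2afz, H3f3b and Cenpa. Those of H2afy, H2afy2 and H3f3a overlap. Another scaling would move all orange symbols by the same factor, so which bounds overlap rests on the scaling. The share of all genes whose bounds do not overlap was not worked out.

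H2afy and H2afy2 encode the macroH2A proteins, which carry a large extra domain behind the H2A part. H2afy (chromosome 13, 56174980 to 56237722, minus strand) has 8 coding exons in 79 windows that end 6.69 kb from the start site. It held 864 reads in the untreated library and 794 in the treated library. The means were 10.9 reads and 10.4 scaled reads per window, a ratio of 0.954 (0.865 to 1.05). The SDs between windows were 5.91 and, scaled, 5.18. The strongest window held at most 62 reads in the untreated library, 7.18% of the gene. The predicted gene Gm17253 lies inside H2afy and isolates 3 windows, from 56185501 to 56187600. These held 17, 11 and 10 reads in the untreated library and 16, 13 and 5 in the treated library, in unknown order. Outside them, 76 windows gave 0.955 (0.864 to 1.06), close to the 0.929 (0.567 to 1.52) of those 3 windows.

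H2afy2 (chromosome 10, 61201391 to 61246895, minus strand) has 10 coding exons in 29 windows, and the nearest window lies 25.4 kb from the start site. It held 225 reads in the untreated library and 270 in the treated library, or 7.76 reads and 9.67 scaled reads per window. Its ratio of 1.25 (1.04 to 1.49) was the highest of the 8 genes and the one whose interval lay above 1. Of 18472 genes above 21 reads in a library, 5355 had an interval above 1. The span of H2afy2 touches windows of the neighboring gene Aifm2. The measured window nearest the start site, 25.4 kb from it, held 4 reads in the untreated and 15 in the treated library. Their ratio was 3.89 (1.24 to 16.1), and neither count passes the 21 reads asked of a gene. The window at the far end held 6 and 5 reads, and the 27 windows between these end windows 215 and 250. Both macroH2A genes were measured without their promoters.

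H3f3a and H3f3b both encode H3.3, the H3 that is deposited outside S phase. The coding span of H3f3a (chromosome 1, gene from 182730963 to 182744074, minus strand) has 3 coding exons in 14 windows that begin 1.06 kb from the start site of the transcript that stands for it. It held 117 reads in the untreated library and 104 in the treated library. The means were 8.36 reads and 7.71 scaled reads per window, a ratio of 0.923 (0.702 to 1.21). Shorter transcripts divide it. The 4 windows nearest the start site (182739901 to 182742700) held 43 and 22 reads, a ratio of 0.531 (0.303 to 0.908). The 10 windows further downstream held 74 and 82 reads, a ratio of 1.15 (0.830 to 1.60). The strongest of the 4 windows held 21 or 23 reads in the untreated library and 10 to 12 in the treated library. The intervals of these 2 parts overlap. With the scaling on strong windows described further on, the ratio of the 4 windows was 1.88 (1.07 to 3.22).

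H3f3b (chromosome 11, 115883226 to 115889276, minus strand) has 3 coding exons in 2 windows, from 115884301 to 115885700. The transcript that stands for it starts 3.58 kb upstream of them, and a second listed transcript starts 118 bp upstream. The windows held 131 and 16 reads in the untreated library and 44 and 5 reads in the treated library, in unknown order. The sums of 147 and 49 reads give a ratio of 0.346 (0.245 to 0.481). The stronger window held 89.1% of the reads in the untreated library and 89.8% in the treated library. Only 56.6% of the 32-bp sequences of these windows occur once in the genome, the lowest share of the 8 genes, and how reads with several matches were placed is not given in the sources used here. The genes of the same H3.3 protein thus differed in their measured spans, with 8.36 reads per window in H3f3a and 73.5 in H3f3b, and their intervals of the ratio did not overlap. By the nearest listed start site, the span of H3f3a begins 965 bp away and that of H3f3b 118 bp away.

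Cenpa encodes CENP-A, the H3 of centromeric nucleosomes. It lies on chromosome 5 from 30969150 to 30977200 on the plus strand, and its 4 coding exons fall into 10 windows that begin 142 bp downstream of the start site. The gene held 106 reads in the untreated library and 79 in the treated library. The means were 10.6 reads and 8.20 scaled reads per window, a ratio of 0.774 (0.571 to 1.05). The 3 windows nearest the start site (30969401 to 30971500) held 29, 20 and 13 reads in the untreated library and 14, 6 and 6 in the treated library, in unknown order. Their sums of 62 and 26 reads give a ratio of 0.435 (0.264 to 0.699). With the scaling on strong windows this ratio was 1.54 (0.937 to 2.48). Of 31324 recovered stretches above 21 reads in a library, 12.5% lay 2-fold or more lower after IL-6 and 2.08% as far higher. The other 7 windows of Cenpa held 44 and 53 reads, a ratio of 1.25 (0.823 to 1.91). The intervals of the parts did not overlap, so within Cenpa the share of reads at the 5′ end was lower in the IL-6-treated library, whatever the scaling.

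**Figure D3:**
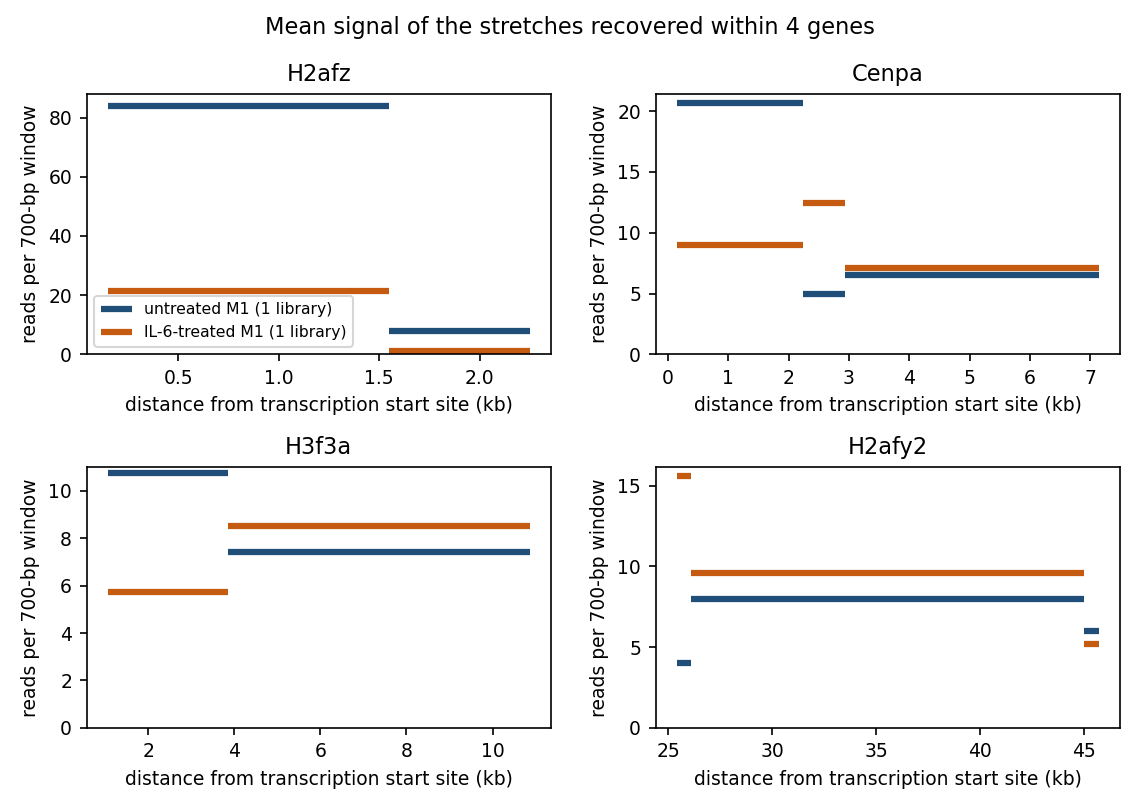
Mean reads per 700-bp window (scaled as deposited) of the stretches recovered within H2afz, Cenpa, H3f3a and H2afy2 against distance from the start site in kb, in the untreated (blue) and IL-6-treated (orange) library. The stretches nearest the start site in H2afz, Cenpa and H3f3a have the most reads in the untreated library (84, 20.7 and 10.8 per window) and fewer in the treated library (21.3, 9.0 and 5.71), an order that the scaling on strong windows turns for Cenpa and H3f3a, while the stretches of H2afy2 lie over 25 kb from it.

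Across the genes, 4 of the 8, H2afx, H2afz, H3f3b and H2afv, lay 2-fold or more lower after IL-6, and 0 lay as far higher. Over 18472 genes above 21 reads in a library, 13.4% lay that far lower and 1.71% that far higher. The median log2 ratio of the 8 genes was -0.89, with a range from -2.72 to 0.32, and that of the 18472 genes was 0.03. These numbers rest on the scaling. As deposited, 1 read of the treated library counts as 1.04. A scaling on strong windows, by the median ratio of recovered single windows that hold 22 reads or more in each library, counts it as 3.68 and shifts every log2 ratio by 1.83. H2afx (-0.89) and H2afz (-0.17) stayed lower, H2afv (0.41) and H3f3b (0.30) became higher, and H2afy, H2afy2, H3f3a and Cenpa then lay 2-fold or more higher. More genes pass 21 reads with this scaling, and of 20848 genes 17687 (84.8%) then lay that far higher and 16 (0.0767%) that far lower, so the 4 of 8 members stood below the share of all genes. The order of the genes is not touched by a common factor. From the lowest log2 ratio it was H2afx, H2afz, H3f3b, H2afv, Cenpa, H3f3a, H2afy and H2afy2. Neighbors in this order had overlapping intervals, except H2afv and Cenpa.

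**Figure D4:**
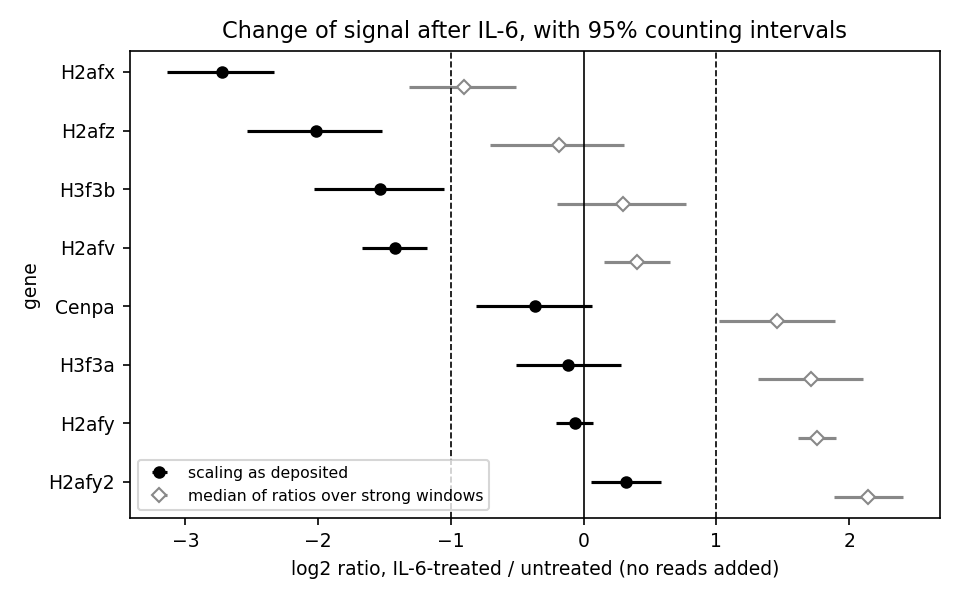
Log2 ratio of treated to untreated signal for each gene with 95% counting intervals, with the scaling of the deposited table (black) and with the median ratio of strong windows (grey diamonds). Dashed lines are at 2-fold. With the deposited scaling H2afx, H2afz, H3f3b and H2afv lie below -1, and with the other scaling the intervals of H2afz and H3f3b include 0 and that of H2afv lies above it.

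The ratios were also set beside the strength of the signal in the untreated library and the distance from the start site. Of the 963 genes with over 50 reads per window in the untreated library, which include H2afx, H3f3b and H2afz, 95.5% lay 2-fold or more lower and 0% as far higher. Of the 10719 genes with 6 to 25 reads per window, which include the other 5 members, 6.03% lay that far lower and 0.606% that far higher, and H2afv was the member among the lower ones. Genes of 1 to 3 windows, such as H2afx, H2afz and H3f3b, stood at 29.8% and 6.95%. By the start site of the transcript that stands for each gene, H2afx, H2afv, H2afz and Cenpa lay within 150 bp of their windows, with ratios from 0.151 to 0.774. H3f3b, H3f3a, H2afy and H2afy2 lay over 1 kb away, with ratios from 0.346 to 1.25, and H3f3b was the member among them that lay 2-fold lower. Among all genes over 1 kb away by the same measure, 2.63% lay that far lower and 1.4% that far higher. By the nearest listed start site instead, H3f3b lay 118 bp and H3f3a 965 bp from the windows. The part of signal strength and of start site distance in the lower ratios of these genes was not tested.

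**Figure D5:**
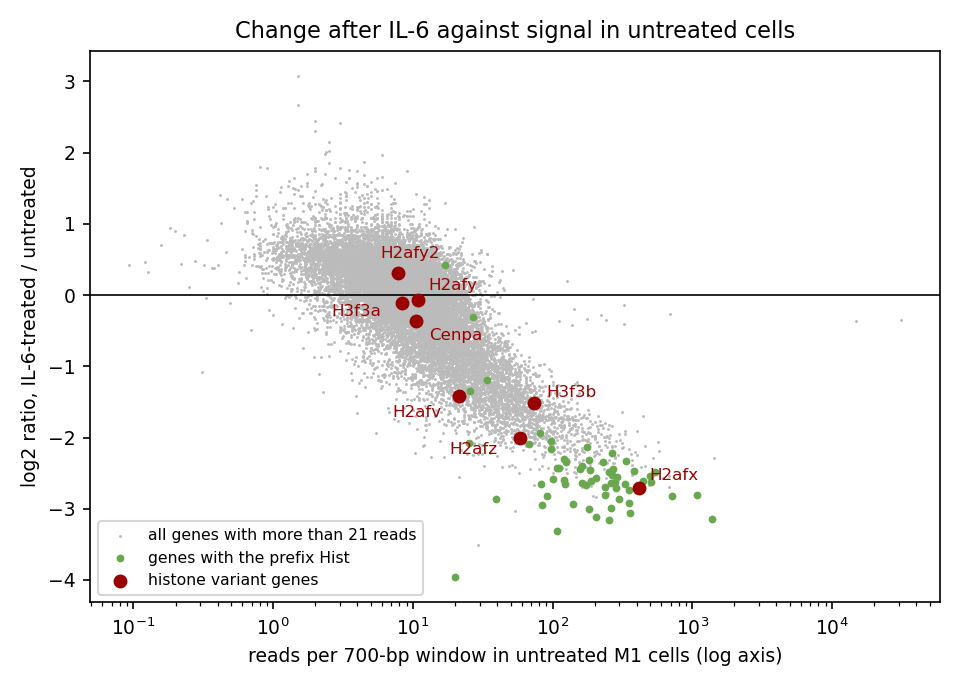
Log2 ratio of treated to untreated signal (deposited scaling) against reads per 700-bp window in the untreated library (log axis) for 18472 genes (grey), genes with the prefix Hist (green) and the 8 histone variant genes (red). Genes with more signal in the untreated library have lower ratios, the histone variant genes lie within this cloud, and another scaling moves all points up or down together. The untreated reads enter both axes.

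A list of 34 histone chaperone and remodeler genes was also looked at, of which 33 were matched. The list is not limited to proteins that carry these variants, as it also holds general histone chaperones and a DNA break factor. Of the 33 matched genes, 10 lay 2-fold or more lower and 0 as far higher, with a median log2 ratio of -0.52. This is 30.3% of the list, beside 13.4% of all genes. With the scaling on strong windows the number was 0, beside 0.0767% of all genes. The lowest were Oip5, which encodes a factor needed to load CENP-A, with 402 and 99 reads (log2 ratio -1.96), and Znhit1, a subunit of the SRCAP complex that exchanges H2A for H2A.Z, with 1040 and 305 reads (-1.71). The start sites of both lie in measured windows. The highest were Ubn1, a partner of the H3.3 chaperone HIRA, with 228 and 280 reads (0.35), and Ep400, a remodeler that exchanges H2A.Z, with 846 and 930 reads (0.19). Their start sites lie 4540 and 13646 bp outside. Among the chaperones themselves, the log2 ratio was -1.46 for Daxx over 8 windows and -0.20 for Hira over 133 windows, both of which carry H3.3, and -1.04 for Hjurp over 19 windows, which carries CENP-A. The start site of Daxx lies 911 bp outside its windows, and those of Hira and Hjurp lie inside. Daxx, Hira and Hjurp were picked with their values already known.

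The replication-dependent histone genes, those with the prefix Hist, are the S-phase counterpart of the variants. Of 67 such genes 62 were above 21 reads in a library, and 60 lay 2-fold or more lower, beside 13.4% of all genes and 95.5% of those with over 50 reads per window in the untreated library. They had a median log2 ratio of -2.60 and a median of 186 reads per window in the untreated library. With the scaling on strong windows 13 lay that far lower, beside 16 of 20848 genes (0.0767%) in all. The lowest with more than 100 reads were Hist1h2an (-3.32) and Hist1h4j (-3.16), and the highest were Hist1h2bp (-1.94) and Hist1h3c (-2.05). H2afx, at 412 reads and -2.72, lay within the range of these genes, and it was the member nearest to them in build, with 1 exon and its start site in the same window as its coding sequence. H2afz (-2.00) lay just below Hist1h2bp. Many Hist genes are near-identical copies, so their single values are uncertain.

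The 5 genes whose signal in both libraries was nearest to the medians of the members were Itpa, 1810031K17Rik, Eml3, Ddx47 and Trap1. Their log2 ratios ran from -0.62 to -0.59. The medians, taken over log2 means, were 15.3 reads per window untreated and 10.0 scaled reads per window treated. Likeness was the distance between log2 means over the 2 libraries, and 82 of 15895 genes lay within 0.1. With so few values this likeness singles out no gene. For comparison, Gapdh, a glycolysis gene used in all cells, had 436 and 99 reads and a log2 ratio of -2.08, close to that of H2afz.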

How the data were processed

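DHS-seq of 1 untreated and 1 IL-6-treated M1 library was analyzed. Per the study's methods and the labels, reads were trimmed of adaptors and low-quality bases and aligned to NCBIM37 with BWA. The version, and the treatment of reads with several matches, are not given in the sources used here. The signal values deposited by the authors are means and SDs over 700-bp windows of each of 55432 transcripts, already scaled. A column without values was not used.

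Multiplying a mean by its number of windows gave a whole number of reads in 100% of rows within 0.05, with 1 read worth 1 in the untreated and 1.03816 in the treated column. Transcripts sharing window boundaries gave the reads of 40217 stretches, 4349 of them single windows, and 0 of 276 sums reached by a second route disagreed. Sums of squares from the SDs gave single windows or bounds. On simulated windows 7486 of 7486 rows and 672 of 672 pairs were recovered, and intervals held the true ratio in 190 of 200 changed genes. The simulated reads varied by counting error alone, so this checks the computation and not the spread between real libraries.

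The coding spans equal GENCODE M1 in 99.9% of rows. Before the log2 ratio was taken, 0.5 reads were added on each side. Plain ratios add none. A gene was counted as lower or higher at 2-fold or more if either library held more than 21 reads, the treated reads being scaled first. The study used the same number as its cut-off for hypersensitive sites, whereas here it applies to the summed reads of a coding span. Alternatives covered scaling, reads added, transcript, fold and read minimum. The members and lists were chosen with earlier results of these data known. Named were all members, the 2 lowest and 2 highest genes of each other list with more than 100 reads over both libraries, the 5 nearest genes and Gapdh. Outside this rule, Daxx, Hira, Hjurp, H1fnt and H1fx were named with their values known. Promoters and 32-bp sequences were read from NCBIM37. Python 3.11.15, numpy 2.4.6, pandas 2.3.3, scipy 1.17.1, numba 0.67.0 and matplotlib 3.10.9 were used.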

Additional observations from a re-analysis of the deposited data

How the results depend on the processing

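No paired analysis was possible because untreated and treated cells gave 1 library apiece. Of 80 alternative values of single genes under 10 settings, 60 stayed within the interval of the reported ratio and 20 did not. In 10 of these the sign changed, all with the scalings on single windows, and 6 of the 10 (H2afy, H3f3a and Cenpa) ended 2-fold or more higher. Scaling by totals, by ratios over genes or not at all, and adding 1 or 5 reads, moved none out of its interval. The scalings on recovered single windows that hold 22 reads or more in each library were chosen after seeing the data. With their median ratio the log2 ratio of H2afv was 0.41 and that of H3f3b 0.30. With their trimmed mean, which shifts all ratios by 1.68, these were 0.27 and 0.16. The members at least 2-fold lower were then 0 and 1 in place of 4, those as far higher 4 and 4 (before: 0), and the median log2 ratio 0.93 and 0.79 in place of -0.89. Of all genes 84.8% and 81.5% were then that far higher, and 0.0767% and 0.141% that far lower. With the median ratio, 0 chaperone and remodeler genes in place of 10 were at least 2-fold lower. For the replication-dependent histone genes it was 13 in place of 60, and for all genes 0.0767%. At a fold of 1.5 it was 16 chaperone and remodeler genes, beside 23.2% of all genes. With the transcript of fewest windows, or of highest untreated mean, the log2 ratio was -1.18 for Cenpa and -0.90 for H3f3a, because these transcripts cover the 5′ end alone, and 5 members were at least 2-fold lower, beside 14.6% and 17.1% of all genes. Depth limits windows of few reads most, as in the third window of H2afz with 1 read after IL-6.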

Other observations

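Of 10 further histone variant genes outside the 9, 6 were matched and 3 were above 21 reads in a library. H2afj, which encodes the variant H2A.J, held 190 reads in the untreated library and 43 in the treated library over 2 windows with its start site inside them, a ratio of 0.235 (0.165 to 0.329). The oocyte linker histone gene H1foo held 151 and 112 reads over 8 windows, a ratio of 0.770 (0.598 to 0.990). The testis linker histone gene H1fnt held 19 and 34 reads over 3 windows, a ratio of 1.86 (1.03 to 3.45). H1fx held 16 and 13 reads over 2 windows that include its start site, far fewer than H2afx held in 1 window of like position. The scaling on strong windows moves each log2 ratio up by 1.83. H2afj (-2.08) then stays below 0 with an interval that includes no change, and H1foo (-0.38) and H1fx (-0.24) turn to above 0.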
